A study of Mus musculus with 6 samples.

Results

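The E2 ubiquitin-conjugating enzymes were followed in oocytes of aged mice, as the protein-coding genes whose symbol begins with Ube2. This rule, which used no measured value, found 36 of the 25631 genes in the deposited table, of which 17773 are protein coding. Another 2 rows with the name, which are not protein coding, were left out. Ube2cbp carries the name as a binding protein and is not an E2 by fold, and it was kept because the rule goes by symbol. The table's own pathway annotation places 32 of the 36 in ubiquitin-mediated proteolysis. Oocytes were punctured from large antral follicles of ICR mice aged 14 months that had been injected with equine chorionic gonadotropin, a hormone that drives the growth of antral follicles. In the control group (n = 3 libraries), labelled aged and untreated, the mice drank water alone. In the aminophylline group (n = 3 libraries) they drank 4.0 mM aminophylline, a theophylline derivative that inhibits phosphodiesterases without selectivity for a subtype, for 1 week and then water only for 3 weeks. The number of oocytes and of mice in a library is not given in the sources used here, so the p-values measure the spread between these libraries, which may be technical.

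Ubiquitin is passed along a chain of enzymes. An E1 activates it, an E2 carries it as a thioester on a catalytic cysteine, and an E3 ligase brings the loaded E2 to the substrate, where the E2 often decides which kind of ubiquitin chain is built. Some E2s carry the ubiquitin-like proteins NEDD8 or ISG15 instead. In oocytes this system removes cyclin B and securin at the exit from meiosis, and it clears maternal proteins after fertilization. A fully grown oocyte is nearly silent in transcription, so that transcript levels reflect stored mRNA.

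In many E2s the catalytic core holds a histidine-proline-asparagine run followed by the cysteine that bears ubiquitin. In the coding sequences of GENCODE (GRCm38), a transcript was found for all 36 genes, the run was found in 22 and a cysteine shortly after it in 21. The codon run was not found in the chosen transcripts of Ube2cbp, Ube2e1, Ube2e2, Ube2e3, Ube2j1, Ube2j2, Ube2o, Ube2q1, Ube2q2, Ube2ql1, Ube2v1, Ube2v2, Ube2w and Ube2z, and in Ube2u the run was found without the cysteine. Only this exact run, and a cysteine shortly after it, were searched for. A gene on this list is therefore not shown to lack a catalytic cysteine. The windows of 51 coding bases below are shown because they hold the active site of the E2s whose levels are described in detail. Each is written 5′ to 3′ on the coding strand, with the codons of the run and of the cysteine in capitals.
Ube2t: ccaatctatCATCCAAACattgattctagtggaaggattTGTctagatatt
Ube2d3: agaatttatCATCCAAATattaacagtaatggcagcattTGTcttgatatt
Ube2s: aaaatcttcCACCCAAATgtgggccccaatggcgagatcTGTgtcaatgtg
Ube2c: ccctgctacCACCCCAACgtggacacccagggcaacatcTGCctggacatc
Ube2a: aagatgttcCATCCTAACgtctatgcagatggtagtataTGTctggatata
Ube2b: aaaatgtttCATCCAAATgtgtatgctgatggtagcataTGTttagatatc
Ube2n: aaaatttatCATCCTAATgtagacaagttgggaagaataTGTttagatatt
Ube2g1: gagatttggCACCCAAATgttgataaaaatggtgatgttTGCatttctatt
Ube2dnl1: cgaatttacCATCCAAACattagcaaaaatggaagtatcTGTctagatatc
The windows of Ube2t (chr1:134971287-134971337, plus strand), Ube2d3 (chr3:135459990-135460040, plus strand), Ube2s (chr7:4810470-4810520, minus strand), Ube2c (chr2:164771938-164771988, plus strand), Ube2n (chr10:95541394-95541444, plus strand) and Ube2dnl1 (chrX:114905667-114905717, plus strand) lie within 1 coding exon. Those of Ube2a (chrX:36881728-36882630, plus strand), Ube2b (chr11:51988669-51991412, minus strand) and Ube2g1 (chr11:72673039-72677736, plus strand) run across an intron between 2 exons. In the table these genes carry the NCBI gene numbers 67196 (Ube2t), 66105 (Ube2d3), 77891 (Ube2s), 68612 (Ube2c), 93765 (Ube2n), 237009 (Ube2dnl1), 22209 (Ube2a), 22210 (Ube2b) and 67128 (Ube2g1).

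Close copies within the family bear on how reads can be assigned. The coding sequences of Ube2a and Ube2b, each of 456 bases, were identical at 77.6% of positions, with no identical run over 17 bases. Ube2d2a and Ube2d3 were identical at 86.4% of 441 positions, and the X-linked pair Ube2dnl1 and Ube2dnl2 at 94.6% of 465 positions. Stretches of 75 bases were searched for in 1 chosen transcript of each gene. Its length can differ from that recovered from the FPKM, with 1792 against 3030 bases for Ube2b. No stretch of Ube2t, Ube2c, Ube2s, Ube2a, Ube2b, Ube2g1, Ube2u or Ube2z occurred in another gene. Stretches that did made up 89.8% of Ube2v1, 50.4% of Ube2e1, 38.6% of Ube2h, 16.8% of Ube2q2 and 15.4% of Ube2d2a. They made up 13.5% of Ube2l3, 11.8% of Ube2d3, 10.2% of Ube2n, 9.28% of Ube2j2 and 8.81% of Ube2v2. Smaller shares were 7.18% for both Ube2dnl1 and Ube2dnl2, 5.97% for Ube2w, 4.70% for Ube2g2, 4.44% for Ube2l6 and 2.29% for Ube2f. The values of these genes are uncertain to the extent that reads were split.

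The totals recovered from the FPKM were 14112341 to 33641283 reads per library, and the shallowest by this measure was control library 2. Values are FPKM, the reads on a gene scaled to transcript length and to library size, so that levels of different genes can be set side by side. All 10 oocyte marker genes were above an FPKM of 1 in every library, and their summed FPKM was 17980 to 25768 in the control group and 19256 to 23036 in the aminophylline group. The summed FPKM of 10 granulosa and cumulus markers was 15.7 to 23.4 and 17.3 to 21.9 in the same order. Of these 10, 7 were below an FPKM of 1 in every library. Most of the sum came from Cyp19a1 (7.37 to 15.7 over all libraries) and Nr5a2 (4.43 to 8.53). For 10 macrophage markers the summed FPKM was 184.9 in control library 1 and 81.0 to 101.8 in the other libraries. C1qb alone accounted for 72.3 to 99.8 in every library, and the sum of the other 9 macrophage markers was 112.6 in control library 1 and 1.18 to 2.40 elsewhere. Without control library 1, 0 of the tested E2 genes had an unadjusted limma p under 0.05, where 3.52% of all tested genes did. The smallest adjusted p of an E2 gene in that limma fit was 0.983. The part of these markers in the values of the E2 genes was not tested. In a library of whole oocytes, fewer cells of a type and less RNA in each cell cannot be told apart.

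The E2 genes spanned a wide range of levels. Of the 36, 22 had a mean FPKM of at least 10 over the 6 libraries, 5 of at least 100 and 3 of less than 1. The 5 genes at the top, Ube2t, Ube2d3, Ube2s, Ube2c and Ube2a, held 80.6% to 85.9% of the summed FPKM of the family. Among the 33 genes that passed the expression filter, the mean of the highest was 1072 times that of the lowest.

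**Figure D1:**
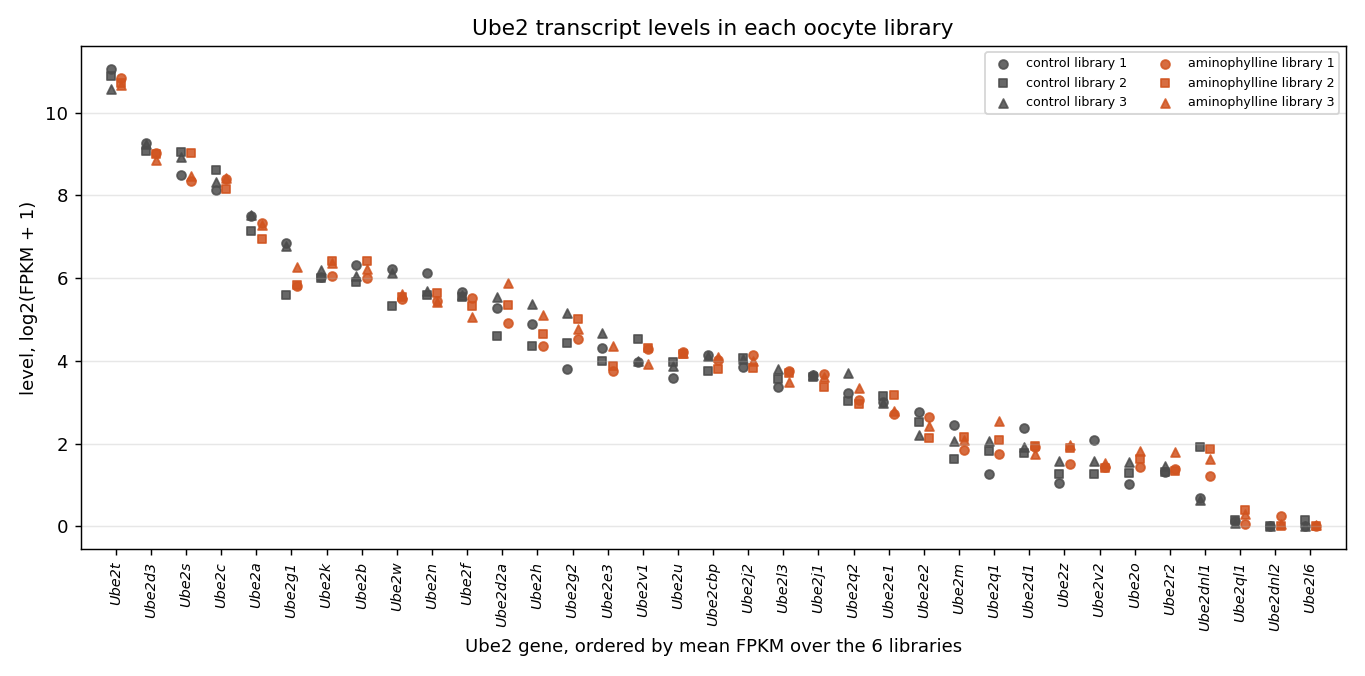
Levels of 35 Ube2 genes on a log2(FPKM + 1) axis, ordered by mean FPKM, with 1 point for each library (control in grey, aminophylline in orange, the marker shape giving the library number). Ube2t stands above all others in every library, and the libraries of both groups intermingle for most genes.

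Ube2t, which monoubiquitinates FANCD2 and FANCI in the Fanconi anaemia repair pathway, was the most abundant E2 transcript. Its FPKM was 2141, 1889 and 1527 in control libraries 1 to 3 and 1826, 1679 and 1642 in aminophylline libraries 1 to 3, the order used for all genes here. It ranked between 22 and 28 among all listed genes in each library and made up 39.4% to 49.5% of the family's summed FPKM. Its lowest library lay above the highest library of Ube2d3, the next gene. Ube2d3, Ube2s and Ube2c followed with overlapping ranges, and each of these neighbours kept the order of their means in 5 of 6 libraries. Ube2c lay above Ube2a and Ube2a above Ube2g1 without overlap. Below Ube2g1, the ranges of neighbouring genes overlapped except between Ube2j2 and Ube2l3 and between Ube2dnl1 and Ube2ql1.

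At the low end, 3 genes did not pass the expression filter (an FPKM of 1 or more in any 3 libraries). Ube2ql1 had 8, 4 and 4 reads across the controls and 3, 21 and 19 across the aminophylline libraries. Ube2dnl2 had 0, 0 and 0 reads across the controls and 4, 0 and 1 across the aminophylline libraries. Ube2l6, the E2 of ISG15, had 0, 2 and 0 reads across the controls and 0, 0 and 1 across the aminophylline libraries. The smallest amount taken as measurable was 3 reads, which covers counting error only, so Ube2dnl2 and Ube2l6 were at or near the limit of detection in every library. The other 33 of the 36 genes passed.

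The comparison of aminophylline with control asks whether transcripts of this family differ in oocytes of treated aged mice. In limma, fitted on log2(FPKM + 1) over 10340 genes, none of the 33 tested E2 genes passed. At an unadjusted p under 0.05, 0 were higher and 0 were lower in the aminophylline group, where 4.41% of all tested genes were higher and 2.84% lower. After Benjamini-Hochberg adjustment the count was 0 of 33 in limma, and it was 0% of all tested genes. On the recovered reads, limma with voom gave 1 E2 gene (Ube2z, higher) at an unadjusted p under 0.05 and 0 after adjustment, where over all genes 434 were higher and 327 lower without adjustment. In the limma fit on log2(FPKM + 1), the smallest unadjusted p of an E2 gene was 0.0542 and the smallest adjusted p was 0.688. The direction of calls over all genes moved with scaling. Of the genes called, 60.8% were higher with the deposited FPKM, 49.1% after rescaling to a common sum (TPM), 39.7% under quantile normalization and 35.9% under median centring. No E2 gene was called under TPM or median centring, where 5.55% and 7.57% of all tested genes were. Under quantile normalization Ube2d3 was lower, and 8.46% of all tested genes were called in either direction.

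The size of the differences was limited. The log2 fold change (aminophylline minus control) ran from -0.43 to 0.50 over the 33 genes. Its median was -0.09 for the E2 genes and 0.10 for all tested genes, and 21 of 33 E2 genes (63.6%) lay below 0, against 35.2% of all tested genes. For 30 of the 33 genes the 95% interval of the difference lay within 1 log2 unit on either side of 0. It lay within a fold change of 1.5 in either direction for 12 genes. The widest interval, that of Ube2dnl1, ran from -0.23 to 1.22. For the other 21 genes the interval reached past a fold change of 1.5 on at least 1 side. Fold changes on this scale understate those of weakly expressed genes.

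**Figure D2:**
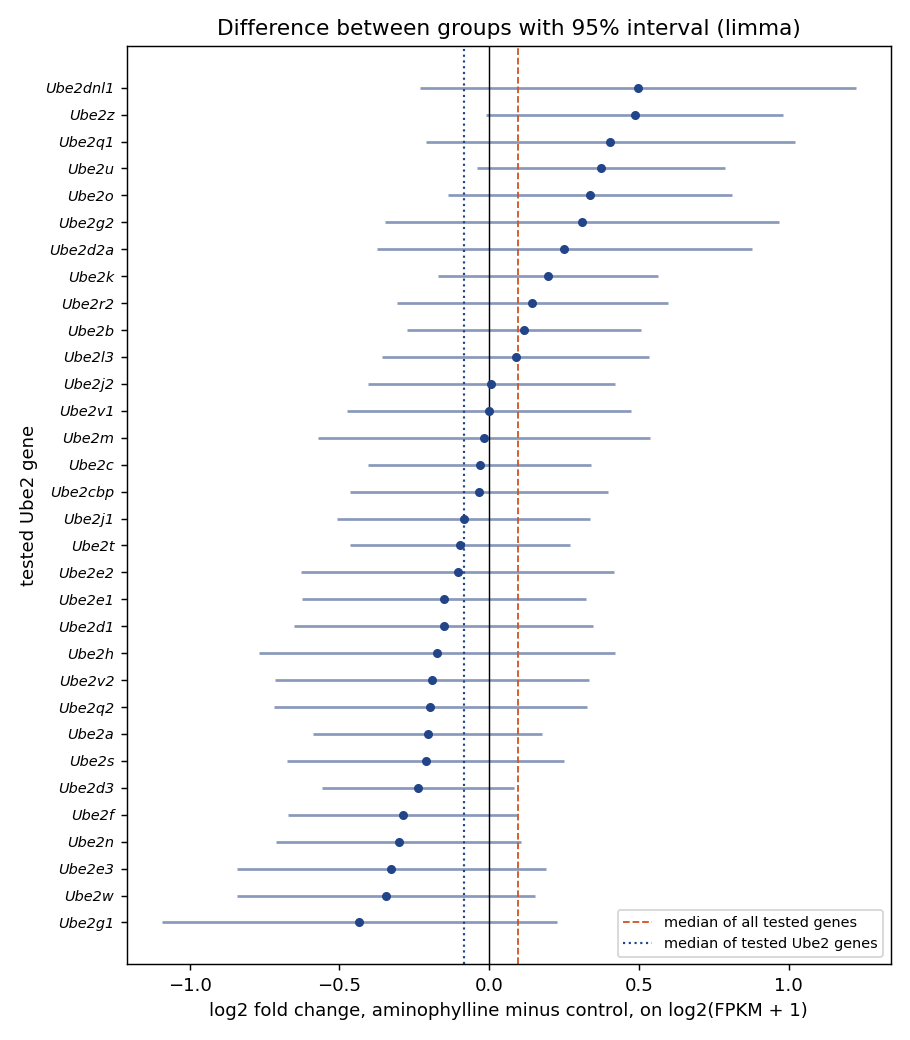
Log2 fold change of 32 tested Ube2 genes (aminophylline minus control, on log2(FPKM + 1)), with points for the limma estimate and bars for its 95% interval; the dashed line is the median of all tested genes (0.10) and the dotted line that of all tested Ube2 genes (-0.09). Every interval includes 0.

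Summed over the 36 genes, the FPKM was 4323, 4071 and 3873 in the control libraries (4089 ± 225, SD, n = 3) and 3764, 3769 and 3635 in the aminophylline libraries (3723 ± 76.1, SD, n = 3). The sums of the groups did not overlap. As a share of each library's total FPKM, the family took 0.693% to 0.794% in the control group and 0.646% to 0.671% in the aminophylline group. Without Ube2t, the sums were 2182 to 2346 and 1939 to 2090 in the same order. Its RPM, the reads of the family relative to a library's total, was 9285, 8065 and 8660 across the controls and 7736, 7818 and 7629 across the aminophylline libraries. These sums are given as a description, since they rest mostly on a handful of abundant genes.

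Ube2c and Ube2s work with the anaphase-promoting complex, which drives the exit from meiosis. Ube2c places the first ubiquitins on its substrates and Ube2s extends them into chains. The FPKM of Ube2c was 279.9, 392 and 319.7 across the controls and 338, 286 and 340.0 across the aminophylline libraries. The groups overlapped widely, with a log2 fold change of -0.03 (SE 0.169, limma's adjusted p = 0.969, 95% interval -0.40 to 0.34). The FPKM of Ube2s was 361, 531 and 486 across the controls and 327, 518 and 354 across the aminophylline libraries. Libraries of high and low Ube2s were found in both groups, and the difference on the log2 scale was -0.21 (SE 0.210, limma's adjusted p = 0.788, 95% interval -0.67 to 0.25).

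Of 6 E2s of DNA damage and chromatin, 0 were called at an unadjusted limma p under 0.05 (7.25% of all tested genes). Below 0 lay 5 of them (35.2% of all tested genes), with a median log2 fold change of -0.15. Role groups this small are given as a description, and no group was tested as a set. For Ube2t, whose libraries are given above, the group means were 1852 ± 309 and 1715 ± 97.3 (SD, n = 3 each). Its log2 fold change, with its standard error (SE), was -0.10 (SE 0.167, limma's adjusted p = 0.884, 95% interval -0.47 to 0.27). Ube2a and Ube2b, the mammalian counterparts of yeast Rad6, ubiquitinate PCNA and histone H2B, and Ube2b is required for sperm formation. The FPKM of Ube2a was 179, 140.7 and 184 across the controls and 159, 122 and 155 across the aminophylline libraries. That of Ube2b was 78.2, 59.1 and 65.5 across the controls and 62.8, 84.2 and 73.1 across the aminophylline libraries. Library 2 was the lowest of its group for Ube2a in both groups, whereas for Ube2b it was the lowest control and the highest aminophylline library. The log2 fold changes were -0.21 for Ube2a (SE 0.174, limma's adjusted p = 0.766) and 0.12 for Ube2b (SE 0.178, limma's adjusted p = 0.868). With 1 library left out, Ube2a ran from -0.33 to -0.09 (without aminophylline library 2) and Ube2b from 0.01 (without the same library) to 0.22. Whether the paralogs differed from each other in response was not tested.

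Ube2n builds lysine-63 chains together with the catalytically inactive partners Ube2v1 and Ube2v2. Its FPKM was 69.3, 47.3 and 50.4 across the controls and 42.7, 48.8 and 41.9 across the aminophylline libraries. Control library 1 stood above the other libraries, and the difference on the log2 scale was -0.30 (SE 0.186, limma's adjusted p = 0.728). The value was -0.14 (unadjusted p = 0.436) without control library 1 and -0.41 (unadjusted p = 0.0484) without control library 2. The FPKM of Ube2v1 was 14.1 to 22.0 over all libraries (log2 fold change -0.00048), and that of Ube2v2 was 1.39 to 3.26 (log2 fold change -0.19). Neither passed the test.

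Among 9 E2s that work with many E3 ligases, 8 were tested. Of the 8, 0 were called (7.25% of all tested genes) and 5 lay below 0 (35.2%), with a median log2 fold change of -0.13. Ube2d3, the most abundant of the Ube2d group, had an FPKM of 616, 543 and 604 across the controls and 523, 514 and 460.1 across the aminophylline libraries. Every aminophylline library lay below every control library. The difference on the log2 scale was -0.24 (SE 0.146, unadjusted p = 0.133, limma's adjusted p = 0.728), and the exact two-sided permutation p was 0.1, the smallest that 3 libraries against 3 allow. Ube2d3 had an unadjusted p under 0.05 without control library 2 and in the unmoderated linear model of each gene. The other members of the group were Ube2d2a, at 23.2 to 45.3 in the control group and 29.4 to 58.3 in the aminophylline group, and Ube2d1, at 2.43 to 4.22 and 2.38 to 2.87. Ube2l3, which serves the HECT and RING-between-RING ligases such as parkin, had an FPKM of 9.28 to 12.8 over all libraries. Of the 3 Ube2e genes, Ube2e3 was the most abundant, with 15.0 to 24.4 in the control group and 12.6 to 19.5 in the aminophylline group. Ube2e1 had 5.57 to 8.10 and Ube2e2 had 3.41 to 5.81 over all libraries.

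Ube2dnl1, an X-linked relative of the Ube2d genes, was near the floor of the tested range. It had 15, 29 and 13 reads across the controls and 28, 49 and 47 across the aminophylline libraries, or an FPKM of 0.600, 2.77 and 0.550 against 1.33, 2.66 and 2.07. Control library 2 was the highest of all libraries and the other control libraries were the lowest. The difference on the log2 scale was 0.50 (SE 0.331, unadjusted p = 0.161, limma's adjusted p = 0.728). With the replicate number as a block the unadjusted p was 0.0265 and limma's adjusted p was 0.283. Without control library 2 the log2 fold change was 0.92, with an unadjusted limma p of 0.00363. It was 0.30 (unadjusted p = 0.453) without control library 1 and 0.28 (unadjusted p = 0.431) without control library 3.

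Endoplasmic reticulum-associated degradation returns misfolded proteins to the cytosol for destruction. Of its 4 E2s, 0 were called (7.25% of all tested genes) and 2 lay below 0 (35.2%), with 2 above. Ube2g1 was the most abundant, with an FPKM of 114, 47.4 and 109 across the controls and 55.2, 56.2 and 76.8 across the aminophylline libraries. Control library 2 was the lowest of all 6 libraries while control libraries 1 and 3 were the highest. The difference on the log2 scale was -0.43 (SE 0.300, unadjusted p = 0.177, limma's adjusted p = 0.728, 95% interval -1.09 to 0.23). With the replicate block the unadjusted p was 0.0391 and limma's adjusted p was 0.318. Without control library 2 the log2 fold change was -0.84, with an unadjusted p of 0.000925 and an adjusted p of 0.0939 from limma. It was -0.21 (unadjusted p = 0.534) without control library 1 and -0.25 (unadjusted p = 0.446) without control library 3. Ube2g2 had an FPKM of 12.9 to 34.5 in the control group and 22.3 to 31.3 in the aminophylline group. The membrane-anchored Ube2j1 and Ube2j2 had 9.35 to 11.9 and 13.2 to 16.6 over all libraries, among the narrowest ranges of the family.

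The E2s of ubiquitin-like proteins were 4, of which 3 were tested. Of the 3, 0 were called (7.25% of all tested genes) and 3 lay below 0 (35.2%). Ube2f, which carries NEDD8 to the cullin Cul5, had an FPKM of 49.4, 45.6 and 47.1 across the controls and 44.9, 39.3 and 32.4 across the aminophylline libraries, without overlap. Its log2 value differed by -0.29 (unadjusted p = 0.125, limma's adjusted p = 0.728). Ube2m, which carries NEDD8 to the other cullins, had an FPKM of 2.08 to 4.50 over all libraries, and its control libraries spanned those of the aminophylline group.

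The other 10 ubiquitin E2s differ widely in substrates. Of these, 9 were tested and 0 were called (7.25% of all tested genes). Above 0 lay 6 and below it 3 (35.2% of all tested genes), with a median log2 fold change of 0.20. Ube2z, which takes ubiquitin from the second ubiquitin E1 Uba6, had the smallest p of the family. Its FPKM was 1.08, 1.39 and 2.002 across the controls and 1.84, 2.71 and 2.89 across the aminophylline libraries. Within each replicate number the aminophylline library was the higher, but the groups overlapped. The difference on the log2 scale was 0.49 (SE 0.225, unadjusted p = 0.0542, limma's adjusted p = 0.688, 95% interval -0.01 to 0.98). With the replicate block the unadjusted p was 0.0221 and limma's adjusted p was 0.269. Without control library 3, or without aminophylline library 1, Ube2z also had an unadjusted limma p under 0.05.

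Ube2u, a little-studied E2, was the single tested gene of the family whose aminophylline libraries all lay above the control libraries. Its FPKM was 11.0, 14.7 and 13.8 across the controls and 17.5, 16.8 and 17.3 across the aminophylline libraries. The difference on the log2 scale was 0.37 (SE 0.189, unadjusted p = 0.0734, limma's adjusted p = 0.688, 95% interval -0.04 to 0.79). Without control library 2 both Ube2u (higher) and Ube2w (lower) had an unadjusted limma p under 0.05. Ube2k, which builds lysine-48 chains, had 63.3 to 72.5 in the control group and 64.9 to 84.6 in the aminophylline group. Ube2w, which ubiquitinates protein N termini, had 39.4 to 73.7 and 43.9 to 48.0. The level of Ube2h, the E2 of the CTLH ligase, was 19.6 to 40.2 and 19.5 to 33.4. Ube2q1, whose loss impairs female fertility in mice, had 1.40 to 3.18 and 2.34 to 4.83. Ube2q2 had 6.77 to 12.1, Ube2o 1.05 to 2.52 and Ube2r2 1.48 to 2.46 over all libraries. Ube2cbp, the gene that has the name alone, had 12.6 to 16.7 (log2 fold change -0.03).

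**Figure D3:**
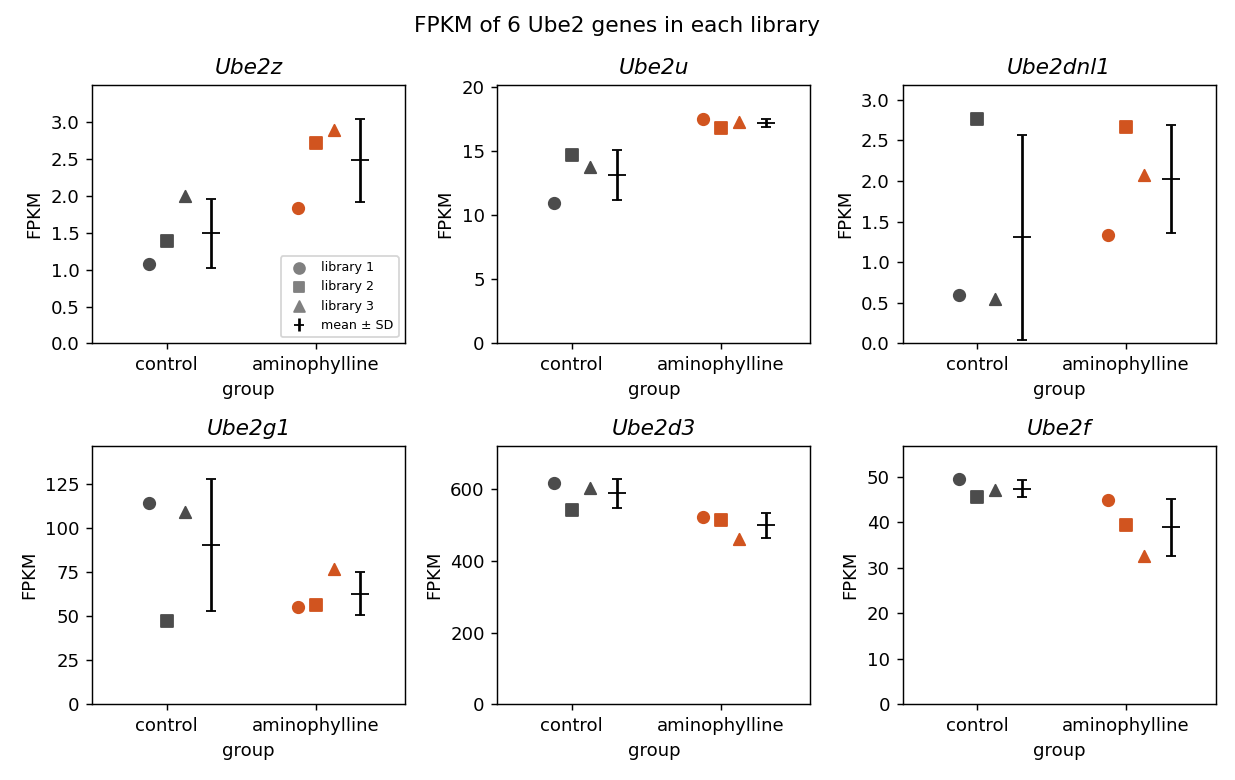
FPKM of 6 Ube2 genes in each library, with points for single libraries (marker shape giving the library number) and a bar for mean ± SD (n = 3). Control library 2 is the highest control library for Ube2dnl1 and the lowest for Ube2g1, and the groups do not overlap for Ube2u, Ube2d3 and Ube2f.

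Counted over the family, the groups did not overlap for 1 gene that was higher (Ube2u) and for 3 that were lower (Ube2d3 and Ube2f among them) in the aminophylline group, of 33 tested. Over all tested genes these shares were 7.51% higher and 4.96% lower. Ube2u and Ube2f were named after their values were seen. With the replicate block, limma gave 2 E2 genes that were higher (Ube2z and Ube2dnl1) and 1 that was lower (Ube2g1) at an unadjusted p under 0.05, where 9.88% of all tested genes were higher and 4.30% lower. At an adjusted p under 0.05 in that fit there were 0 E2 genes, and 0.455% of all tested genes. Of the 33, control library 1 held the highest value for 12 genes, and control library 2 held the lowest for 9.

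Control library 2, the shallowest, differed from the other control libraries in a way that went partly with transcript length. Its log2(FPKM + 1) minus the mean of control libraries 1 and 3 was below 0 for 23 of the 33 genes (69.7%) and for 60.6% of all tested genes. It was 1.26 for Ube2dnl1, which has 743 bases, 0.39 for Ube2c and 0.34 for Ube2s, which are also short. It was -1.22 for Ube2g1, -0.83 for Ube2w, the longest at 7059 bases, -0.81 for Ube2d2a and -0.76 for Ube2h. Length did not order all genes, with Ube2m (1567 bases) at -0.63, Ube2v1 (2077 bases) at 0.53 and the long Ube2o (5261 bases) and Ube2k (4882 bases) at -0.01 and -0.10. Across the 33 genes, which share the libraries and are not independent replicates, Pearson's r with log2 length was -0.57 and Spearman's rho was -0.48, and across all tested genes they were -0.40 and -0.41. The spread between control libraries was larger than that between aminophylline libraries for 24 of 33 E2 genes, and for 74.7% of all tested genes. Without control library 2, 6 of the 33 E2 genes had an unadjusted limma p under 0.05, where 15.6% of all tested genes did. These were Ube2dnl1 and Ube2u, which were higher, and Ube2d3, Ube2g1, Ube2n and Ube2w, which were lower, and the smallest adjusted p was 0.0939. Without control library 3 there were 2, Ube2g2 and Ube2z, beside 14.2% of all tested genes. Without aminophylline library 1 there was 1, Ube2z, beside 6.84% of all tested genes. The part of transcript length or depth in these differences was not tested.

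**Figure D4:**
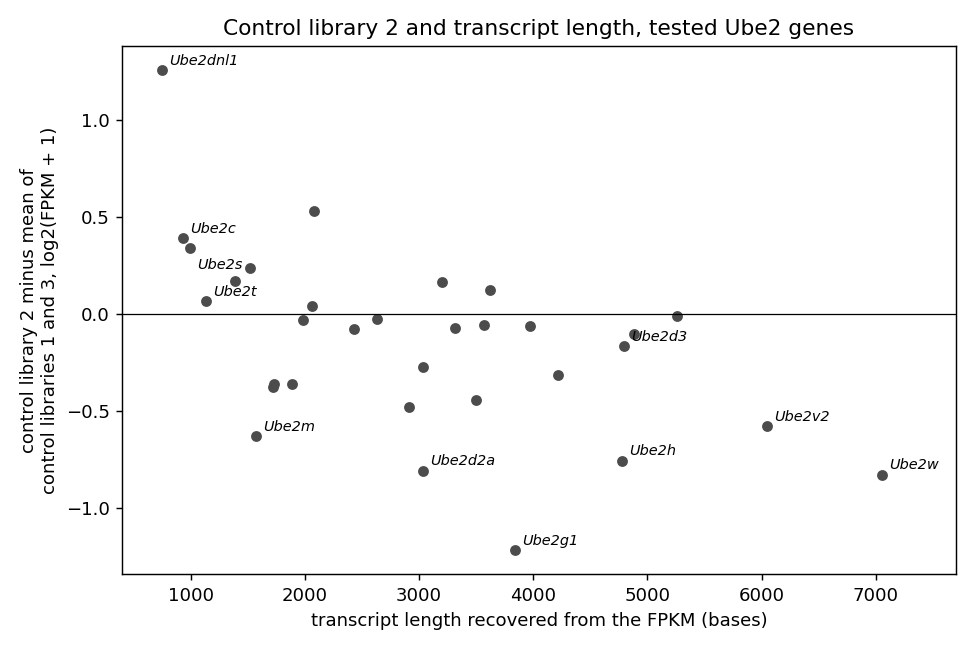
Difference of control library 2 from the mean of control libraries 1 and 3 on log2(FPKM + 1) against transcript length in bases, with 1 point for each of 32 tested Ube2 genes. The short Ube2dnl1, Ube2c and Ube2s lie above 0, and Ube2g1, Ube2w, Ube2d2a and Ube2h lie well below it.

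The partners of the E2s were read from the same fit. The lists of E1 enzymes, E2 folds with other names, ubiquitin and ubiquitin-like precursors and E3 partners held 71 genes. Of these, 67 were in the deposited data and 54 were tested, and 3 were higher and 2 lower at an unadjusted p under 0.05. In the same fit 4.41% of all tested genes were higher and 2.84% lower. After adjustment in limma the count was 0 of the 54 genes. The median log2 fold change of the 54 was 0.19, beside -0.09 for the E2 genes and 0.10 for all tested genes. Among 8 tested E1 genes, 1 was lower. It was Nae1, a subunit of the NEDD8 E1 and so upstream of Ube2m and Ube2f, with an FPKM of 408, 204 and 315 across the controls and 198, 186 and 202 across the aminophylline libraries. Every aminophylline library lay below every control library, and the difference on the log2 scale was -0.60 (SE 0.224, unadjusted p = 0.0213, limma's adjusted p = 0.682). Uba1, the main ubiquitin E1 that loads most of the family, had 12.2, 12.5 and 20.9 across the controls and 16.9, 23.9 and 25.3 across the aminophylline libraries (unadjusted p = 0.0538). Its log2 fold change was 0.53, and with the replicate block the unadjusted p was 0.0118 and limma's adjusted p was 0.228.

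Among 7 tested E2 folds with other names, 1 was lower. It was Tsg101, an inactive E2 variant of the endosomal sorting machinery, with 227, 164 and 195 across the controls and 155, 151 and 142 across the aminophylline libraries (log2 fold change -0.37, SE 0.164, unadjusted p = 0.0430, limma's adjusted p = 0.684). Among 10 precursors, 1 was higher, namely Rps27a, a fusion of ubiquitin and a ribosomal protein, with 246, 280.3 and 238 against 319.9, 335 and 317 (log2 fold change 0.35, SE 0.145, unadjusted p = 0.0352, limma's adjusted p = 0.682). Among 29 tested E3 partners, 2 were higher and 0 lower. Pias4, a SUMO ligase, had 4.10, 6.82 and 12.2 across the controls and 13.4, 14.7 and 18.5 across the aminophylline libraries (log2 fold change 1.02, SE 0.312, limma's adjusted p = 0.661). With the replicate block its limma's adjusted p was 0.0329, the single one under 0.05 among the 54 genes. Anapc2, the cullin subunit of the anaphase-promoting complex that works with Ube2c and Ube2s, had 3.68, 4.16 and 5.83 against 5.04, 7.85 and 9.18 (log2 fold change 0.57, SE 0.259, unadjusted p = 0.0483, limma's adjusted p = 0.685). With the block, 10 of the 54 genes were higher and 2 lower (unadjusted p under 0.05), beside the 9.88% and 4.30% of all tested genes given above.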

How the data were processed

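Oocyte RNA of 3 control and 3 aminophylline libraries was sequenced by the authors' provider from a VAHTS Universal V6 kit. The authors deposited FPKM per gene, and per the labels their processing used the mouse build GRCm38 (mm10). The aligner, counting program and annotation are not given in the sources used here, and neither is strandedness. Reads and lengths were recovered by taking for each gene the smallest length that made its reads whole in every library with a value. By this choice 100% of 120140 values were whole within 0.01, so that share does not test the recovery. Totals were 14112341 to 33641283 reads, and 3 reads served as the floor, for counting error only.

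Tested genes had an FPKM of 1 or more in any 3 of 6 libraries. They were compared with limma 3.58.1 in R 4.3.3, two-sided, with a moderated variance and a trend, on log2(FPKM + 1), adjusted by Benjamini-Hochberg over all genes tested. The thresholds were p of 0.05 and, for intervals, 95%. The code was tested on simulated data, with changes larger than any seen here among the E2 genes. That test does not show whether differences of the size seen here would be found. Groups come from the labels. The labels number the libraries 1 to 3 in both groups without saying that a number shares mice or a batch. After subtracting group means, same-numbered libraries correlated at 0.138, 0.140 and 0.552 across genes, each over 0.1, and the replicate block is given where it changes a call. Control library 2 and aminophylline library 1, which differ in number, correlated at 0.423, so the pairing is weakly founded for numbers 1 and 2. The alternatives were another pseudocount (0.1), no filter, a mean FPKM of at least 5, TPM, quantile normalization, median centring, an unmoderated model, library weights, the block, voom on recovered reads, and leaving out each library.

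Members and lists were chosen with earlier results of these data known. Values in each library are given for the 6 genes of highest mean, for Ube2c, Ube2s, Ube2a, Ube2b and Ube2n, for genes past p of 0.05 with the block and not without it, and for pathway genes with p under 0.05; all others are accounted for by role, and Ube2f, Ube2u and Uba1 were given in full after their values were seen. Gene coordinates are not used beyond the printed windows, which come from GENCODE transcripts of GRCm38. The values of 1 member are not reported here, although it is included in the counts, medians and sums.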

Additional observations from a re-analysis of the deposited data

How the results depend on the processing

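At an adjusted p under 0.05, the count of E2 genes was 0 under all 16 alternatives, and the smallest adjusted p was 0.0939. At an unadjusted p under 0.05 (0 higher, 0 lower as reported), higher E2 genes were 1 with no filter, 1 with the unmoderated model, 4 with library weights, 2 with the replicate block and 1 with voom on the recovered reads. Lower ones were 1 with quantile normalization, 1 with the unmoderated model, 2 with library weights and 1 with the block. Leaving out 1 library gave 0 to 2 higher and 0 to 4 lower. The share of all tested genes called, in either direction, was 5.48% with no filter and 6.55% with the unmoderated model. It was 19.4% with library weights, 14.2% with the block, 7.36% with voom and 8.46% with quantile normalization. With 1 library left out it was 3.16% to 15.6%. The cause of the differences between settings was not tested. The median log2 fold change of the E2 genes was -0.17 with median centring and -0.094 to -0.023 with 1 library left out.

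Signs were followed for 11 genes rather than the whole family, and 4 of their 174 values changed sign. Ube2s was at 0.092 with library weights. With 1 library left out, Ube2c ran from -0.14 to 0.10 (0.10 without control library 2 and 0.05 without aminophylline library 2), and Ube2t ran from -0.231 to 0.013. Outside the 11 genes some signs were less stable. Ube2v1 lay below 0 in 12 of 17 settings, Ube2j2 in 6 of 17 and Ube2m in 14 of 16. Ube2f and Ube2w lay below 0 in all 17, and Ube2u in 0.

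Over all genes, the 456 higher calls became 917 with no filter, 294 with a mean FPKM of at least 5, 282 with TPM, 281 with median centring, 1398 with library weights, 1022 with the block and 191 to 1171 with 1 library left out. The 294 lower calls became 487 with no filter, 528 with quantile normalization, 502 with median centring, 613 with library weights, 445 with the block and 125 to 744 with 1 library left out. Adjusted calls were 0, and 47 with the block. Among the partner genes, the 3 higher became 1 with the unmoderated model, 11 with library weights, 10 with the block and 1 to 11 with 1 library left out. The 2 lower became 1 with no filter, 0 with the unmoderated model and 0 to 5 with 1 library left out.

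Depth limits the weakest genes most, since Ube2dnl1 rested on 13 to 49 reads, and with 3 libraries in a group an exact permutation p cannot go below 0.1.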
